A study of Mus musculus with 8 samples.

Results

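The change in translation efficiency between dendritic cells labelled Mettl3KO and Mettl3WT was taken for every named gene present in both deposited tables, 11743 of the 20617 named genes found in either table. Translation efficiency is the ratio of ribosome-protected fragments (RPF), the short stretches of mRNA that a ribosome shields from nuclease, to the input mRNA of the same lysate. Each library was centred on its median gene, log2(RPF/input) was formed in each lysate, and the WT value was subtracted from the KO value of the same table. The filter on low values, an average of 1 RPKM or more (reads scaled to gene length and to library size) in input and likewise in RPF, left 10321 genes. No fold change entered the choice. However, 0 named genes are listed at 0 in any library of the second table, so a gene at 0 there in either genotype is not among the members.

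KO cells were derived from Mettl3 fl/fl CD11c-Cre mice, in which exons 2 to 4 of Mettl3 are deleted by a recombinase that the CD11c promoter drives, and WT cells from Mettl3 fl/fl littermates without Cre, both on the C57BL/6 background. All cells were dendritic cells grown from bone marrow of mice aged 6 weeks with GM-CSF and IL-4, selected on CD11c beads and matured with lipopolysaccharide (LPS) at 100 ng/ml for 24 h. Ribosomes were arrested with cycloheximide, and footprints were taken from the monosome fraction after digestion with micrococcal nuclease. There were 2 KO and 2 WT lysates with an RPF and an input library each, 8 libraries in all. The methods describe several pairs of KO and WT littermates, and how these pairs were divided between the replicates is not stated. Deletion begins only once a precursor expresses CD11c, so cells of these cultures that never expressed it keep an intact gene.

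METTL3 is the catalytic subunit of the complex that writes N6-methyladenosine (m6A) into mRNA, most often within the sequence GGACU or its close relatives. Proteins that read the mark can change how long an mRNA lives and how often ribosomes load onto it, and the YTHDF1 reader is the one best known for promoting translation. TLR4, the LPS receptor, signals through adaptors that include TIRAP and MyD88. In dendritic cells LPS raises costimulatory molecules such as CD40, CD80 and CD86 and cytokines such as IL-6 and IL-12. The question put to these libraries was which mRNAs carried fewer or more ribosomes per molecule when the writer was deleted.

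The letters that m6A most often occupies can be seen in the mRNAs on which the comparison turns. The following windows of 25 bases, with GGACT in capitals, were read from the longest coding transcript of each gene in GENCODE M21 on GRCm38 (mm10), and are written 5′ to 3′ on the mRNA strand. Windows from coding sequence are given for Il6 (chr5:30013392-30013416, plus strand) and Cd80 (chr16:38474027-38474051 and chr16:38479316-38479340, plus strand), and the first window after the stop codon for Tirap (chr9:35187700-35187724, minus strand), Cd40 (chr2:165070961-165070985, plus strand) and Socs1 (chr16:10783468-10783492, minus strand).
Il6 coding: tgccttcttgGGACTgatgctggtg
Cd80 first coding: tataagaaccGGACTttatatgaca
Cd80 second coding: acgtgtcagaGGACTtcacctggga
Tirap 3′ UTR: aagaagatggGGACTccccaagaag
Cd40 3′ UTR: ctggctctgaGGACTgcttgctgac
Socs1 3′ UTR: gaccattcctGGACTggagaggtgg
The Tirap mRNA held GGACT 5 times in its 3′ UTR and 1 time in its coding sequence, and the Cd40 mRNA 3 times in its 3′ UTR and 2 times in its 5′ UTR. The mRNA of AA467197, which stood among the lowest below, held none. These letters are common, since 91.6% of 10174 tested genes matched to a transcript by symbol held GGACT (searched on the mRNA strand only), with a median number of 3. A match is not a methylated site, and methylation was not measured in these libraries. The windows were taken by position and not by m6A peak. The first coding window of Cd80 and the Cd40 window hold the sites that the study mutated. Its Tirap site is a later GGACT of the 3′ UTR (chr9:35187620-35187644), not the one shown. The study placed its Il6 peak in the 3′ UTR, where this transcript held 0 GGACT.

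RPKM values below are given as deposited, whereas every change is after centring. The median log2 RPKM of RPF differed by -0.45 between the KO and WT libraries of replicate 1 and by -0.01 in replicate 2, and that of input by -0.03 and -0.02, so footprints slightly lower in KO of replicate 1 as deposited can be higher after centring.

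Mettl3 (chromosome 14) was looked at first, as a check of the labels. Its RPF was 15.3 and 5.88 RPKM in KO of replicates 1 and 2, against 34.0 and 9.63 RPKM in WT. Its input was 6.27 and 11.9 RPKM in KO, against 6.97 and 10.1 RPKM in WT. Footprints were thus lower in KO in both replicates, while input was slightly lower in one and higher in the other. RPKM values cover the whole gene, of which exons 2 to 4 are a part, so input speaks only weakly to the deletion. Because input of replicate 2 went against the label, KO and WT below mean the libraries labelled so. The log2 KO/WT of Mettl3 translation efficiency was -0.56 in replicate 1 and -0.90 in replicate 2, a fitted change of -0.73 ± 0.56 (SE, n = 2 per group, limma adjusted p = 0.997). The lost exons and the ribosome load cannot be told apart in it.

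No gene passed. Limma with Benjamini-Hochberg adjustment called 0 of 10321 genes (0% in either direction), and the smallest adjusted p was 0.627. At an unadjusted p under 0.05 there were 313 genes with higher translation efficiency in KO (3.03%) and 224 with lower (2.17%). The SE of each gene rests mainly on the spread pooled over genes of similar level, since 1 residual degree of freedom stood against a prior of 15.8. The replicates are described as independent, but since it is not stated which mice entered each, the p-values measure only the spread between these libraries, which may be technical.

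The 2 replicates ordered the genes differently. Across the 10321 genes the change in replicate 1 and the change in replicate 2 correlated at r = 0.004 (Spearman rho = -0.008). This is a description across genes, which are not independent replicates. Of these genes 5093 (49.3%) had the same sign in both replicates, 2434 above 0 (23.6%) and 2659 below 0 (25.8%). Among the 1438 genes at least 2-fold lower in KO of replicate 1, 52.7% were also below 0 in replicate 2, where 52.3% of all genes were. Among the 1679 genes at least 2-fold higher in replicate 1, 46.8% were also above 0 in replicate 2, where 47.7% of all genes were. A large change in the first replicate therefore said little about the sign in the second.

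**Figure D1:**
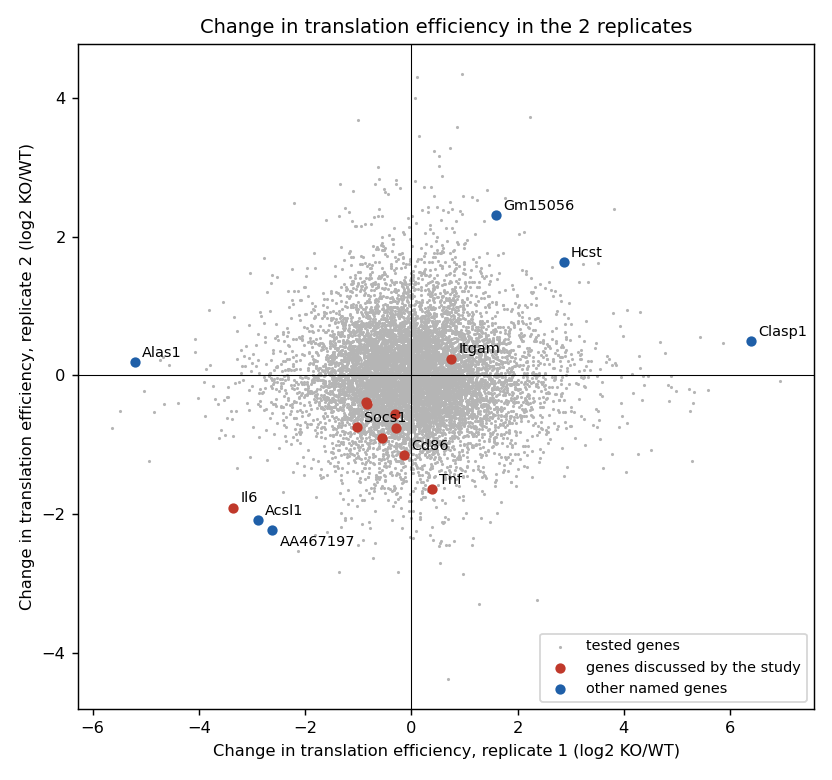
Change in translation efficiency (log2 KO/WT) in replicate 1 (horizontal axis) against replicate 2 (vertical axis) for the tested genes. Grey points are genes, red points the genes discussed by the study and blue points other genes named in the text. Lars2, at 15.67 in replicate 1, is not drawn. The cloud shows no slope (r = 0.004), and Il6, Acsl1 and AA467197 lie at its lower left.

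Spread was wider in replicate 1. The SD of the change over genes was 1.10 in replicate 1 and 0.68 in replicate 2, and 30.2% and 12.5% of genes were past 2-fold. Nearly all of it came from the footprints. The RPF term supplied 92.6% of the variance of the change in replicate 1 and 81.2% in replicate 2, and the input term 7.4% and 18.8%. Input itself varied little between genotypes, with an SD of 0.34 in replicate 1 and 0.30 in replicate 2.

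Read counts could be recovered for replicate 2, and its spread was set beside the counting error. For 1322 genes with more than 1000 RPF reads over KO and WT, the SD of the change was 0.64 and the median SE from counting alone 0.08. For 2065 genes with at most 50 reads the values were 0.86 and 0.66. The correlation between replicates was 0.00 in the well-covered group and 0.02 in the poorly covered one. In the table of replicate 1, whose depth is unknown, the SD was 1.14 and 1.09 for the same groups of genes.

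Translation efficiency itself, before any comparison of genotypes, was shared better within a table than between tables. In replicate 2 the RPF of 223 tested genes had been divided by a gene length of 1 base, which makes their levels far too high. Without them KO and WT correlated at r = 0.78 in replicate 1 and 0.84 in replicate 2 across 10098 genes. The same genotype in the other table correlated at 0.32 in KO and 0.31 in WT. How the table, with its own counting, and the culture contribute to that gap cannot be told apart. A KO/WT fold within replicate 2 is unaffected by the wrong length, which cancels.

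Among the genes that the study discusses, the change in translation efficiency was below 0 in both replicates for 7 of 10 and above 0 in both for 1. The corresponding shares of all tested genes were 25.8% and 23.6%. The list was drawn from the study's text with earlier results of these data known, so its direction is not independent evidence. Their medians were -0.30 in replicate 1 and -0.66 in replicate 2, against 0.00 and -0.03 over all genes. 2 of the 10 were at least 1.5-fold lower in both replicates, Il6 and Socs1, where 4.1% of all tested genes were.

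Il6 (chromosome 5), which encodes an inflammatory cytokine, had the lowest values of these. Its RPF was 2.39 and 32.0 RPKM in KO of replicates 1 and 2, against 30.1 and 112 RPKM in WT. Its input was 41.0 and 80.3 RPKM in KO, against 31.8 and 74.1 RPKM in WT. Footprints were low in both KO libraries while input was somewhat higher there. The log2 KO/WT of translation efficiency was -3.35 and -1.91, a fitted change of -2.63 ± 0.56 (SE, n = 2 per group, limma adjusted p = 0.756). In replicate 2 the footprints were 107 reads in KO and 342 in WT, and the exact 95% interval from counting ran from -2.29 to -1.58. As deposited, without centring, Il6 passed (limma adjusted p = 0.00674). In that fit the median gene of replicate 1 sat at -0.42. Its prior degrees of freedom were infinite, so the spread between a gene's own replicates did not enter the p-value. The same fit called Alas1 at the same limma adjusted p, although its changes were -5.61 and 0.20.

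Socs1 (chromosome 16), a feedback inhibitor of cytokine and TLR signalling, had an RPF of 7.27 and 14.9 RPKM in KO, against 23.2 and 26.3 RPKM in WT. Its input was 31.2 and 35.1 RPKM in KO, against 35 and 36.6 RPKM in WT. Both KO libraries were lower in footprints at nearly level mRNA. The change was -1.03 in replicate 1 and -0.75 in replicate 2, fitted at -0.89 ± 0.54 (limma adjusted p = 0.991).

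Of the 3 mRNAs on which the study built its translation experiments, Cd80, Cd40 and Tirap, each lay below 0 in both replicates and none passed. Cd80 (chromosome 16), a costimulatory ligand of CD28, had an RPF of 138 and 92.1 RPKM in KO, against 206 and 119 RPKM in WT. Its input was 59.5 and 64.9 RPKM in KO, against 36.6 and 64.5 RPKM in WT. After centring, footprints changed by -0.12 and -0.35 on the log2 scale, and input by 0.73 and 0.03. In replicate 1 most of the change thus lay in input. The change in translation efficiency was -0.85 and -0.39, fitted at -0.62 ± 0.53 (limma adjusted p = 0.997).

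Cd40 (chromosome 2), the receptor through which T cells license dendritic cells, had an RPF of 155 RPKM in KO and 182 RPKM in WT of replicate 1, lower in KO as deposited and higher by 0.23 on the log2 scale after centring. In replicate 2, where its RPKM stands on 1 base, the footprints were 624 reads in KO and 1275 in WT. Input was 83.8 and 66.6 RPKM in KO, against 59.8 and 88.4 RPKM in WT, on opposite sides in the replicates. Its change was -0.29 in replicate 1 and -0.76 in replicate 2, where the exact 95% counting interval ran from -0.94 to -0.58, and the fitted change was -0.53 ± 0.53 (limma adjusted p = 0.997).

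Tirap (chromosome 9), the adaptor that brings MyD88 to TLR4, was thinly covered. Its RPF was 4.74 and 1.01 RPKM in KO, against 12.6 and 1.66 RPKM in WT. Its input was 5.28 and 5.91 RPKM in KO, against 5.51 and 6.44 RPKM in WT. The footprints of replicate 2 were 4 reads in KO and 6 in WT, which leaves an interval from -2.88 to 1.5 around a change of -0.41. Replicate 1 had -0.84, and the fitted change was -0.63 ± 0.58 (limma adjusted p = 0.997). At this depth no difference in Tirap was detectable in replicate 2.

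Cd86 (chromosome 16), the other ligand of CD28, had an RPF of 240 RPKM in KO and 256 RPKM in WT of replicate 1, which after centring was higher in KO by 0.36 on the log2 scale. In replicate 2 it had 112 RPKM in KO and 178 RPKM in WT. Input was higher in KO in both, at 61.8 and 90.7 RPKM, against 45.2 and 65.1 RPKM in WT. Its change was -0.13 and -1.15, the second with an interval from -1.34 to -0.97. Il12b (chromosome 11), a subunit of IL-12, was at -0.30 and -0.56, with 883 reads in KO and 1442 in WT of replicate 2.

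Tnf and H2-Eb2 went opposite ways in the replicates. Tnf (chromosome 17), an inflammatory cytokine, had an RPF of 28.1 RPKM in KO and 26.0 RPKM in WT of replicate 1, and 29.3 RPKM in KO and 132 RPKM in WT of replicate 2. Its change was 0.38 and -1.64, and the counting interval of replicate 2 ran from -2.02 to -1.30. H2-Eb2 (chromosome 17), a class II beta chain, was at 0.86 and -0.53. Itgam (chromosome 7), the CD11b integrin chain, was the one gene of the 10 above 0 in both, at 0.75 and 0.24. The study took it as a negative control for its ribosome profiling. Its input was 94.9 and 303 RPKM in KO, against 202 and 265 RPKM in WT. After centring, its RPF changed by -0.30 and 0.46 and its input by -1.05 and 0.22. In replicate 1 the higher value thus lay in input alone. Ythdf1 (chromosome 2), the reader named above, was near level at -0.17 and 0.01.

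**Figure D2:**
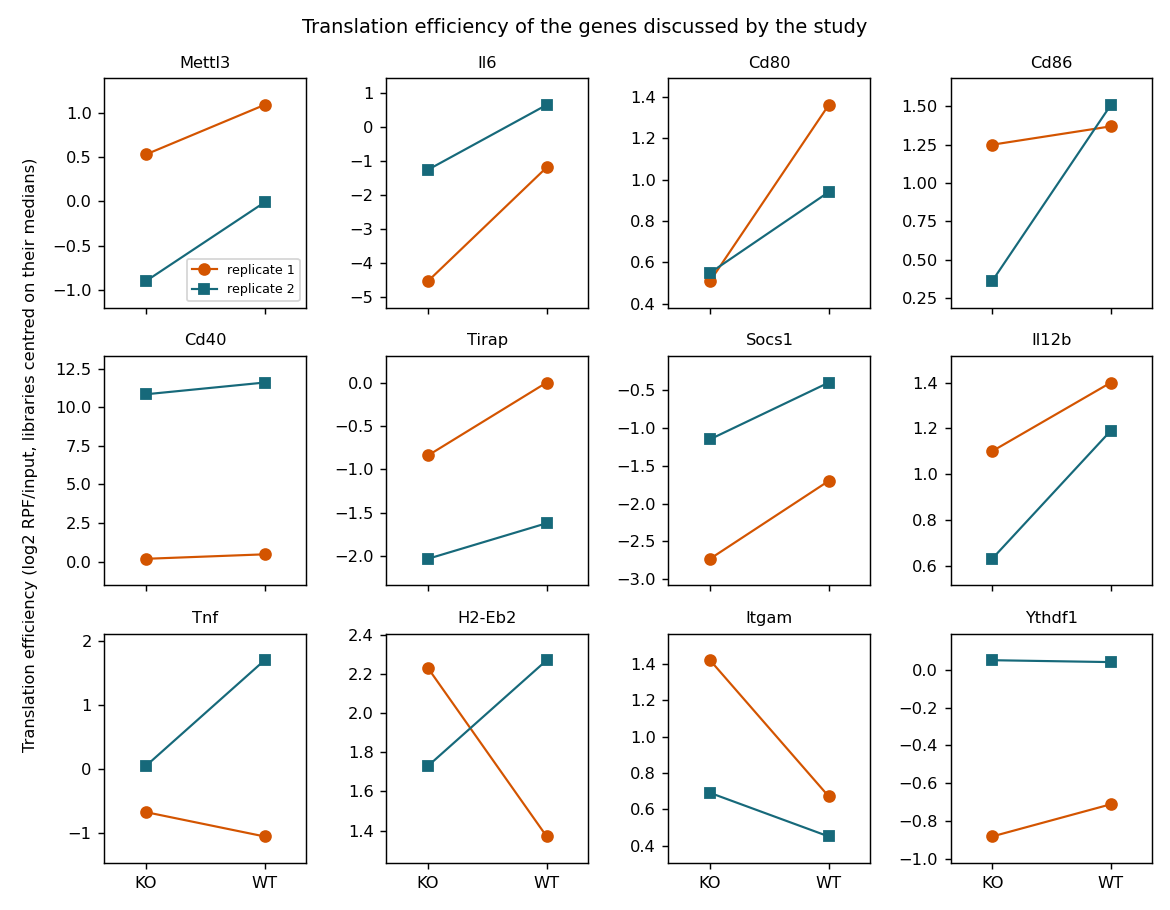
Translation efficiency (log2 RPF/input after centring each library on its median gene) of 12 genes in KO (left) and WT (right), with a line for each replicate and separate vertical scales. KO lies below WT in both replicates for Mettl3, Il6, Cd80, Cd86, Cd40, Tirap, Socs1 and Il12b, and the lines cross or part for Tnf and H2-Eb2. The level of Cd40 in replicate 2 is too high because it stands on 1 base, and only its slope can be read.

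Across the transcriptome 423 genes were at least 1.5-fold lower in KO in both replicates (4.1%) and 467 at least 1.5-fold higher (4.52%). To describe the clearest of these, genes above 0 RPKM in all 8 libraries and with a mean of at least 5 RPKM in each kind of library of each table (6372 genes) were ranked by the smaller of their 2 changes. The measure used both replicates, so the values that follow are a description. At the lower end the ranking ran from AA467197 (-2.23) to Eif5 (-1.34), just ahead of Iigp1 (-1.33). At the higher end it ran from Hcst (1.63) to Tent5c (1.23), with Commd6 next (1.23).

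AA467197 (chromosome 2), the mouse NMES1 gene, which also hosts miR-147, had an RPF of 375 and 276 RPKM in KO, against 2220 and 691 RPKM in WT. Its input was 350 and 327 RPKM in KO, against 251 and 176 RPKM in WT. Footprints were lower and mRNA was higher in both KO lysates. Its change was -2.62 and -2.23, fitted at -2.43 ± 0.56 (limma adjusted p = 0.756). Acsl1 (chromosome 8), which activates long-chain fatty acids, had an RPF of 94.7 and 204 RPKM in KO, against 1340 and 513 RPKM in WT. Its input was 172 and 299 RPKM in KO, against 244 and 178 RPKM in WT, so the sign of the mRNA difference was not shared, while that of the footprints was. Its change was -2.89 and -2.09, with 2252 reads in KO and 5204 in WT of replicate 2.

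Slamf8 (chromosome 1), a receptor of the SLAM family on myeloid cells, was at -2.14 and -2.53. Fn1 (chromosome 1), fibronectin, was at -1.82 and -2.30. Eif5 (chromosome 12), the GTPase-activating protein of the initiator tRNA complex, had an RPF of 15.5 and 21.6 RPKM in KO, against 194 and 53.7 RPKM in WT, at an input of 52.1 and 53.1 RPKM in KO, against 48.8 and 51.5 RPKM in WT. Its mRNA was thus level while its footprints were lower in both KO lysates, and its change was -3.28 and -1.34. Slamf8 stood on 13 reads in KO and 43 in WT of replicate 2, and Fn1 on 270 and 823.

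On the higher side Hcst (chromosome 7), which encodes the DAP10 signalling adaptor, had an RPF of 71.0 and 88.8 RPKM in KO, against 16.5 and 26.2 RPKM in WT. Its input was 23 and 21.4 RPKM in KO, against 30.2 and 19.8 RPKM in WT. Footprints were more abundant in both KO lysates at similar mRNA. Its change was 2.87 and 1.63, fitted at 2.25 ± 0.56 (limma adjusted p = 0.756). Gm15056 (chromosome 8) was at 1.60 and 2.31, with 109 reads in KO and 10 in WT of replicate 2. Camk1 (chromosome 6), a calmodulin-dependent kinase, was at 2.08 and 1.52.

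Il17ra (chromosome 6), the receptor for IL-17A, had an RPF of 12.3 and 25.2 RPKM in KO, against 4.34 and 14.8 RPKM in WT, and an input of 11.7 and 18.0 RPKM in KO, against 16.8 and 26.3 RPKM in WT. Footprints were higher and mRNA lower in KO of both replicates, with changes of 2.33 and 1.27. Parvg (chromosome 15), an adaptor at integrin adhesions, was at 1.47 and 1.31 on 582 reads in KO and 266 in WT of replicate 2. Dph7 (chromosome 2), an enzyme of diphthamide synthesis on elongation factor 2, was at 3.16 and 1.34. None of these genes passed over all genes. As deposited, without centring, AA467197 and Acsl1 (limma adjusted p = 0.00674 each) and Eif5 (limma adjusted p = 0.0253) passed as lower. The limits given for that fit under Il6 hold for these genes too.

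Interferon-stimulated genes, the antiviral program that LPS switches on through TRIF and IRF3, mostly had lower translation efficiency in KO. Of the 45 members, all tested, 27 (60.0%) were below 0 in both replicates and 1 (2.22%) above 0 in both, against 25.8% and 23.6% of all tested genes. 14 members (31.1%) were at least 1.5-fold lower in both replicates, against 4.1% of all tested genes, and 0 were at least 1.5-fold higher. Limma called 0 members, and 10 had an unadjusted p under 0.05, all lower in KO, where 2.17% of all genes were. The list's median was -0.29 in replicate 1 and -1.10 in replicate 2. The median was further below 0 in replicate 2, and in replicate 2 only Irf9, a subunit of the factor that transcribes these genes, lay above 0 (0.29, and 0.02 in replicate 1). The terms behind it also differed, since the median change was -0.42 and -0.75 in RPF and -0.11 and 0.34 in input.

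Cxcl10 (chromosome 5), a chemokine that draws T cells, had an RPF of 24.0 and 155 RPKM in KO, against 109 and 820 RPKM in WT. Its input was 53.6 and 13.0 RPKM in KO, against 59.7 and 14.5 RPKM in WT. The mRNA was nearly level and the footprints lower in both KO lysates, with changes of -1.58 and -2.26. Isg20 (chromosome 7), an antiviral exonuclease, was at -1.79 and -1.75. Cmpk2 (chromosome 12), a mitochondrial nucleotide kinase induced by interferon, was at -1.35 and -1.69, on 543 reads in KO and 1098 in WT of replicate 2. Other members went opposite ways. Ifi205 was at 2.37 and -3.24, Gbp2 at 2.43 and -1.19 and Rsad2 at 1.32 and -2.05 (these 3 were picked after their values were seen).

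Cytosolic ribosomal protein mRNAs, whose translation is known to be controlled as a group through a pyrimidine tract at their 5′ end, had lower values as well. Of 81 listed genes 72 were tested, and 37 (51.4%) were below 0 in both replicates and 3 (4.17%) above, where 25.8% and 23.6% of all genes were. 17 members (23.6%) were at least 1.5-fold lower in both, where 4.1% of all genes were, and 0 were as much higher. Limma called 0, and 4 had an unadjusted p under 0.05, all lower, where 2.17% of all genes were. The medians were -0.35 and -0.68, but they arose differently. In replicate 1 the median change was 0.41 in input and 0.06 in RPF, and in replicate 2 it was 0.03 in input and -0.60 in RPF. Rplp2 (chromosome 7), a protein of the ribosomal stalk, had an RPF of 165 and 62.6 RPKM in KO, against 387 and 235 RPKM in WT, and changes of -1.29 and -1.78. Rps15a (chromosome 7) was at -1.04 and -1.19 on 10 reads in KO and 22 in WT of replicate 2. These genes have many processed pseudogenes, and how shared reads were assigned is not given, so their levels are uncertain.

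Initiation and elongation factors had smaller medians, at -0.21 and -0.19 over 50 tested genes. Of these 19 (38.0%) were below 0 in both replicates and 6 (12%) above, against 25.8% and 23.6% of all genes. 4 (8.0%) were at least 1.5-fold lower in both and 0 higher, where 4.1% and 4.52% of all genes were. Eif5 led them. Pabpc1 (chromosome 15), the poly(A)-binding protein, had an RPF of 62.6 and 44.1 RPKM in KO, against 186 and 120 RPKM in WT, and an input of 238 and 387 RPKM in KO, against 300 and 383 RPKM in WT. Its change was -0.81 and -1.46. Of 22 aminoacyl-tRNA synthetases 4 (18.2%) were below 0 and 2 (9.09%) above 0 in both, with medians of 0.35 and -0.15. Of 19 genes of the ATF4 branch and mRNAs with upstream reading frames 7 (36.8%) were below 0 and 5 (26.3%) above 0 in both, with medians of 0.04 and -0.25 and no shared direction. Among them Atf4, the stress factor whose mRNA carries upstream reading frames, was at -0.82 and -0.99, while Sesn2, one of its targets, was at 0.68 and 0.88.

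Proliferation genes mostly had higher translation efficiency in KO. Of 32 tested members 19 (59.4%) were above 0 in both replicates and 2 (6.25%) below, against 23.6% and 25.8% of all genes. 8 (25%) were at least 1.5-fold higher in both, against 4.52% of all genes, and 0 were as much lower. Limma called 0, and 6 had an unadjusted p under 0.05, all higher, where 3.03% of all genes were. The medians were 0.52 and 0.80, with RPF at 0.72 and 0.64 and input at 0.13 and -0.08. Tpx2 (chromosome 2), a spindle assembly factor, had an RPF of 17.2 and 9.33 RPKM in KO, against 8.79 and 4.35 RPKM in WT, at an input of 1.41 and 3.48 RPKM in KO, against 1.31 and 4.27 RPKM in WT. Its change was 1.27 in both. Birc5 (chromosome 11), survivin, was at 2.96 and 1.04 on 47 reads in KO and 19 in WT of replicate 2. Bub1b (chromosome 2), a checkpoint kinase, was at -0.60 and -0.28. Input of many of these genes was low, and 1 member was still at least 1.5-fold higher in both with the filter at 5 RPKM, and 4 without centring.

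**Figure D3:**
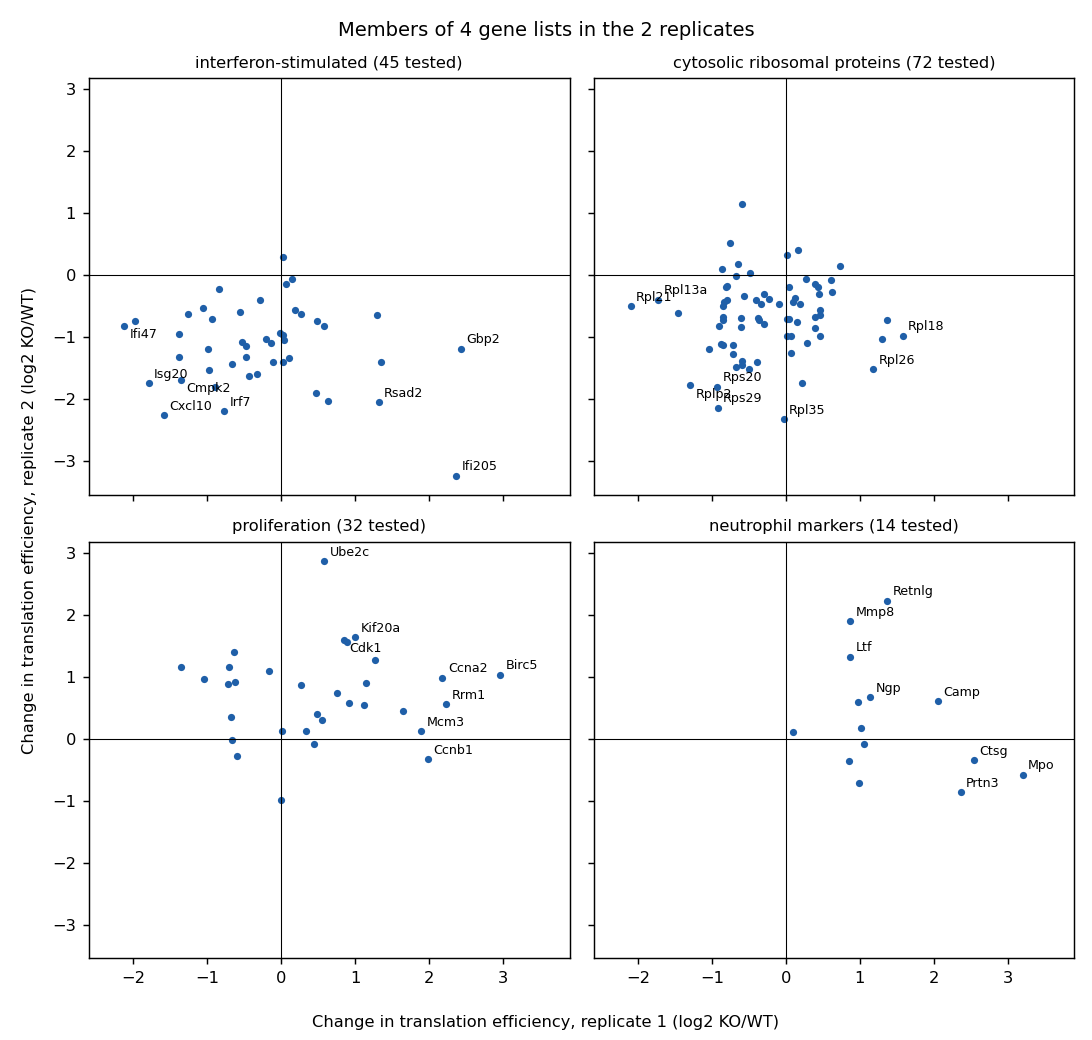
Change in translation efficiency (log2 KO/WT) in replicate 1 (horizontal axis) and replicate 2 (vertical axis) of the tested members of 4 gene lists. Points are genes, and the 8 farthest from 0 in each list are named. Interferon-stimulated and ribosomal protein genes lie mostly below 0 in replicate 2 and on both sides in replicate 1, proliferation genes mostly above 0 in both, and neutrophil markers all above 0 in replicate 1.

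Markers of other blood cells were counted beside these lists, since the beads can carry other cells along. Of 14 neutrophil markers tested 8 (57.1%) were above 0 in both replicates and 0 below, against 23.6% and 25.8% of all genes. 6 (42.9%) were at least 1.5-fold higher in both, where 4.52% of all genes were, and 3 with quantile normalization or without centring. Their medians were 1.04 and 0.14, and in replicate 1 the input term was the larger part, with a median input of -0.78 and a median RPF of 0.35. Ltf (chromosome 9), lactoferrin of the secondary granules, had an RPF of 52.3 and 262 RPKM in KO, against 67.9 and 108 RPKM in WT, at a log2 RPF change of 0.08 and 1.29 after centring and an input of 14.4 and 60.3 RPKM in KO, against 25.9 and 63.2 RPKM in WT. Retnlg (chromosome 16), a resistin-like protein of neutrophils, was at 1.37 and 2.23 on 29 reads in KO and 3 in WT of replicate 2. Summed over the markers measured on their true length, input was 3430 and 6510 RPKM in KO, against 5510 and 6100 RPKM in WT. The part that neutrophils had in any list above was not tested.

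Of 9 T and NK cell markers 6 (66.7%) were above 0 in both and 2 (22.2%) below, against 23.6% and 25.8% of all genes, with medians of 0.34 and 0.61. Their summed input was 18.2 and 37.6 RPKM in KO, against 13.0 and 31.0 RPKM in WT. Lck (chromosome 4), the kinase of the T cell receptor, was at 2.70 and 1.22, and Nkg7 (chromosome 7), of cytotoxic granules, at 0.77 and 2.13, on 71 reads in KO and 9 in WT of replicate 2. Mast cell and basophil markers had medians of 0.14 and 0.20 over 6 tested genes, and their summed input was 17.5 and 39.8 RPKM in KO, against 22.4 and 67.8 RPKM in WT. B cell markers were near absent, with a summed input of at most 1.48 RPKM in any library and 0 members tested. In bulk lysates fewer cells of a type and less RNA per cell cannot be told apart.

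Dendritic cell markers were abundant in every input library, with a sum of 2990 and 2780 RPKM in KO, against 2290 and 3050 RPKM in WT. The change in translation efficiency was below 0 in both replicates for 6 of these 9 markers (66.7%), where 25.8% of all genes were. For 1 it was above 0 in both, and the medians were -0.34 and -0.40. At least 1.5-fold lower in both were 0 markers and higher 0, where 4.1% and 4.52% of all genes were. Itgax (chromosome 7), CD11c itself, was at -2.15 and -0.52. Macrophage markers were also below 0 in both for 6 of 9 and above 0 in both for 2 (22.2%, against 23.6% of all genes), with medians of -0.32 and -0.58. Of these 9 markers 3 (33.3%) were at least 1.5-fold lower in both and 1 (11.1%) higher. Fcgr1 (chromosome 3), the high-affinity IgG receptor, had an RPF of 37.8 and 99.9 RPKM in KO, against 133 and 197 RPKM in WT, and was at -1.14 and -2.06. C1qc (chromosome 4), a chain of complement C1q, was at 1.34 and 1.43 on 18 reads in KO and 7 in WT of replicate 2. Its RPF in WT of replicate 1 was near the floor, at 0.358 RPKM. C1qa, another chain, went the other way, at -1.28 and -0.90 on 13 reads in KO and 10 in WT of replicate 2.

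Antigen presentation and signalling genes had no member called. Of 12 class II genes tested 5 (41.7%) were below 0 in both replicates and 0 above, against 25.8% and 23.6% of all genes, with medians of -0.46 and -0.53. H2-Eb1, a class II beta chain, had an RPF of 95.8 and 1050 RPKM in KO, against 586 and 2290 RPKM in WT, and changes of -2.10 and -0.84. H2-DMa, which edits the peptides that class II loads, was at -1.04 and -0.52. Of 17 class I and peptide loading genes 8 (47.1%) were below 0 and 1 above in both, with medians of -0.04 and -0.32. At least 1.5-fold lower in both were 0 and higher 1 (5.88%), near the 4.1% and 4.52% of all genes. Costimulation and maturation genes had 9 of 20 (45.0%) below and 2 above, with medians of -0.15 and -0.54, and Icosl, the ligand of ICOS, was at -1.75 and -1.24. Of 25 TLR4 signalling genes 11 (44.0%) were below 0 and 3 (12%) above in both, but the medians of 0.19 and -0.34 had opposite signs. Of 14 NF-kB factors and inhibitors 4 (28.6%) were below 0 and 2 (14.3%) above in both, with medians of -0.01 and -0.30. The adaptor Myd88 was at -0.69 and -0.70 and the kinase Ikbke at -0.77 and -0.93, whereas Irak4, the first kinase of the MyD88 complex, was at 2.15 and 0.26.

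Cytokines and chemokines had 11 of 35 (31.4%) below 0 and 3 (8.57%) above 0 in both, where 25.8% and 23.6% of all genes were. 6 members (17.1%) were at least 1.5-fold lower in both and 1 (2.86%) higher, against 4.1% and 4.52% of all genes, yet the medians were 0.23 in replicate 1 and -0.75 in replicate 2. Il6 and Cxcl10 led the lower side. Lif, a cytokine of the IL-6 family, was the member at least 1.5-fold higher in both, at 1.06 and 1.22, on 21 reads in KO and 10 in WT of replicate 2. The writers and erasers of m6A themselves had 5 of 11 (45.5%) below 0 and 2 (18.2%) above, with Wtap, a regulatory subunit of the writer, at 1.55 and 0.66 and the eraser Fto at -0.72 and -0.35. Of 11 readers tested 2 were below 0 and 1 above 0 in both.

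**Figure D4:**
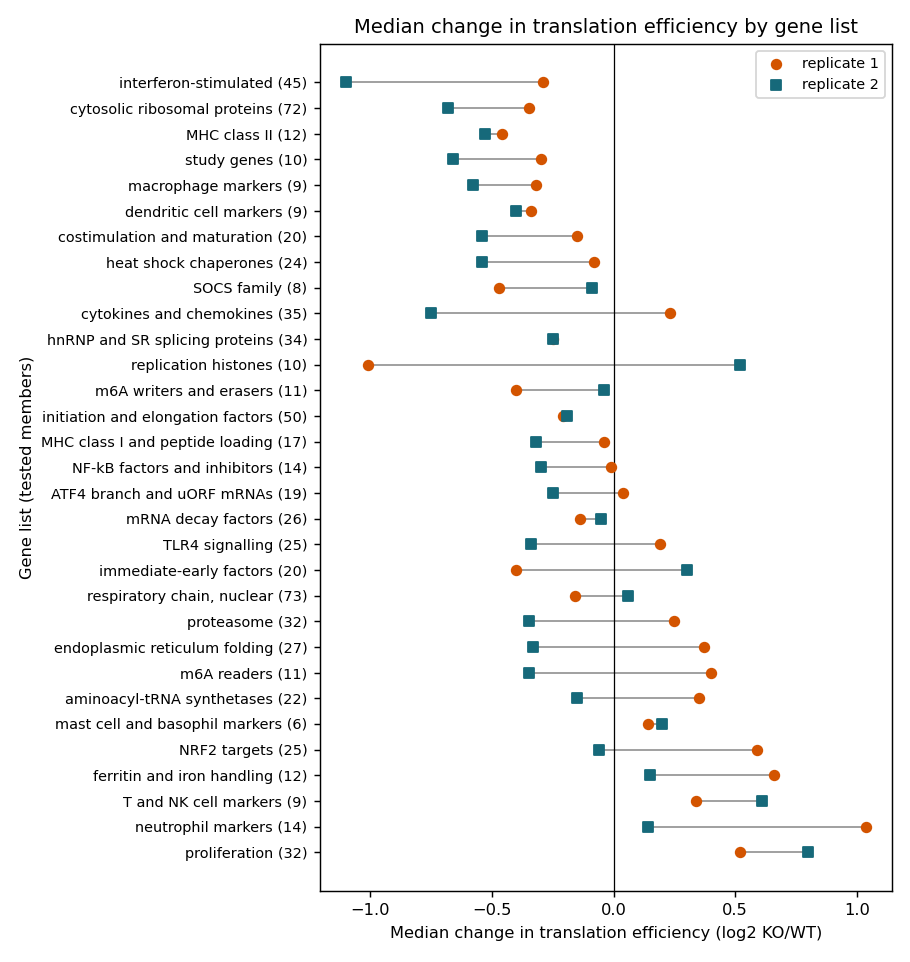
Median change in translation efficiency (log2 KO/WT) of each gene list with at least 5 tested members in replicate 1 (circles) and replicate 2 (squares), with the number of tested members in parentheses. Interferon-stimulated genes reach -1.10 in replicate 2 and proliferation genes 0.80, against -0.03 over all genes, and several lists have medians of opposite sign in the replicates.

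Features of the mRNA were set beside the change to see what genes with lower or higher values shared, as a description across 10289 genes with an annotated transcript. The number of GGACT sequences bore almost no relation to it. Genes with 0 such sequences had a median change of 0.01 in replicate 1 and -0.04 in replicate 2, and genes with 4 or more had -0.01 and -0.02 (Spearman rho = -0.01 and 0.02). Coding length (rho = 0.04 and 0.02), 5′ UTR length (-0.03 and -0.01), 3′ UTR length (-0.03 and -0.05) and the number of ATG triplets before the start codon (-0.02 and -0.02) were as weak.

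GC content was related to the change in replicate 2 alone. In the fifth of genes with the lowest GC, a median of 42.0% of the mRNA, the median change was 0.00 in replicate 1 and -0.17 in replicate 2. In the fifth with the highest, a median of 58.0%, it was -0.05 and 0.06. Spearman's rho was -0.01 and 0.15.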

How the data were processed

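RPKM values, scaled by the authors to gene length and library size, were deposited in 1 table per replicate with 4 columns each, 1 per group. Tools listed in the submitters' processing notes are TopHat2 2.0.14, Cuffnorm and bcl2fastq, with mm10 as the build. Annotation, read filters and the counting step: not given in the sources used here. The deposited log2 translation efficiency columns of the authors equal log2((RPF + 1)/(input + 1)) in the first table and log2(RPF/input) in the second, and were not used. Column names of the second table show a group only and were mapped to it. 0 columns of per-sample values were left unmapped. Rows with a date in place of a symbol (27 and 19) were left out, and 474 older symbols were updated through single RefSeq synonyms of GRCm38.p6, which joined 11743 genes, against 11457 as written.

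Tests were run on log2(RPKM + 0.5), so fold changes are understated for low genes. Limma 3.58.1 in R 4.3.3 fitted the KO effect on RPF minus input with the replicate as a block, since a shared normalization of both tables is not stated. This left 1 residual degree of freedom, moderated with a trend on level, and tests were two-sided with Benjamini-Hochberg adjustment over all tested genes at 0.05. As a check of pairing, the deviations of KO and WT translation efficiency between the replicates correlated at 0.71 across genes, where the number also marks the table. In replicate 2 whole reads (within 0.01) came out for 98.8% of genes in RPF and 77.5% in input, against 3.5% and 0.8% on the lengths of another gene. Library totals were 5276406 (KO) and 4835141 (WT) reads in RPF and 8794573 (KO) and 9920465 (WT) in input. Median RPF reads per gene were 71 (KO) and 64 (WT). Whole reads were not recovered for replicate 1, and its depth is unknown. Exact intervals (95%, conditional, Fisher) cover counting error only, and PCR copies of a molecule are not independent.

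Members, gene lists and tests were chosen with earlier results of these data known. Named genes were Mettl3, Ythdf1 and 10 genes of the study, up to 10 called per direction, the 15 per direction with the largest smaller-of-replicates change (above 0 in all libraries and at least 5 RPKM on average in each measure of each table), up to 2 per direction of each list, and 3 per direction with the widest difference between replicates. Alternatives covered centring, quantile normalization, pseudocount, filter, trend, block, symbols and single libraries. The fit was tested on simulated data.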

Additional observations from a re-analysis of the deposited data

How the results depend on the processing

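The count of 0 called genes in either direction held with quantile normalization, pseudocounts of 0.1 and 1, no filter, the filter at 5 RPKM, no trend, a trend on all 8 libraries and symbols as written (smallest adjusted p from 0.181 to 0.996). Without centring, as deposited, limma called 8 genes higher and 14 lower. The median gene then sat at -0.42 in replicate 1 and 0.01 in replicate 2 and the prior degrees of freedom were infinite. Genes at least 1.5-fold higher in both replicates numbered 467, against 249 as deposited and 237 with the filter at 5 RPKM, which tested 7476 genes, and those at least 1.5-fold lower 423, against 688 as deposited. The split of unadjusted p-values under 0.05 was 313 higher and 224 lower, against 184 and 417 as deposited. The Pearson r of the replicates across genes ranged from -0.004 to 0.009.

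With no replicate block 0 genes passed in either direction, and 7 higher and 5 lower genes had an unadjusted p under 0.05, so no call changed. Fits with no replicate block and 1 library left out also called 0 (range 0 to 0 in both directions). As deposited, H2-Eb2 turned to -0.04 and Irf9 to -0.05. Without the block, leaving out a library sets tables of different level against each other, and the change turned its sign for several named genes. Without KO replicate 1 these were Alas1 (0.62), Cct5 (0.74), Cd40 (4.8), Cxcl10 (0.78), H2-DMa (1.37), H2-Eb1 (0.19), H2-Eb2 (-0.08), Isg20 (0.35), Myd88 (0.85) and Ythdf1 (0.39). Without KO replicate 2 they were C1qc (-0.20), Irf9 (-0.11) and Rps15a (0.76). Without WT replicate 1 they were C1qc (-0.15), H2-Eb2 (-0.28), Rps15a (0.68), Socs3 (-1.59), Tirap (0.19) and Uqcrc1 (-0.21). Without WT replicate 2 they were Cct5 (0.74), Cd40 (5.03), Cxcl10 (1.12), H2-DMa (1.11), Isg20 (0.33), Myd88 (0.85), Tnf (0.74) and Ythdf1 (0.30). Proliferation genes at least 1.5-fold higher in both replicates numbered 8, against 4 as deposited and 1 with the filter at 5 RPKM, under which fewer members were tested. Tirap stood on 4 reads in KO and 6 in WT of replicate 2, and the depth of replicate 1 is unknown.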

Other observations

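Of 12 tested ferritin and iron handling genes 4 (33.3%) were above 0 in both replicates and 0 below, against 23.6% and 25.8% of all genes, with medians of 0.66 and 0.15. Slc40a1, the iron exporter ferroportin, had an RPF of 15.1 and 5.87 RPKM in KO, against 9.18 and 3.99 RPKM in WT, and an input of 2.21 and 9.59 RPKM in KO, against 3.35 and 18.3 RPKM in WT. Footprints were higher and mRNA lower in both KO lysates, and the changes were 1.61 and 1.39. Of 25 NRF2 targets, genes of the oxidative stress response, 6 (24.0%) were above 0 and 6 (24.0%) below 0 in both, near the shares of all genes. Nqo1, a quinone reductase, was at 1.36 and 1.41, and Gsto1, a glutathione transferase, at -1.32 and -0.96. Of 24 heat shock chaperones 12 (50%) were below 0 in both and 1 (4.17%) above, with Cct5, a subunit of the TRiC chaperonin, at -0.70 in both replicates. None passed over all genes.

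Some genes had a far larger change in replicate 1 than in replicate 2. Uqcrc1, a core protein of respiratory complex III, had an RPF of 129 RPKM in KO and 3.43 RPKM in WT of replicate 1, and 90.5 RPKM in KO and 97.8 RPKM in WT of replicate 2, at changes of 5.58 and -0.21. Clasp1, which stabilises microtubules, was at 6.39 and 0.49, and Socs3, an inhibitor of cytokine signalling, at 5.24 and -0.52. Alas1, the first enzyme of haem synthesis, had an RPF of 3.14 RPKM in KO and 237 RPKM in WT of replicate 1, and 285 RPKM in KO and 238 RPKM in WT of replicate 2, at changes of -5.20 and 0.19. Input of Alas1 was 77 and 136 RPKM in KO, against 103 and 130 RPKM in WT, so the gap lay in 1 footprint library of replicate 1. Its origin was not tested.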
